A study of Mus musculus with 8 samples.

Results

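The interferon response and antigen presentation were followed through 9 mouse genes in cultured cortical astrocytes lacking connexin43 (Cx43 KO) and in wild-type astrocytes (WT). They were chosen with earlier results of these data known and matched by symbol in the probe annotation. They are 9 of the 5822 genes named on the array, and 13 of its 9568 features carry their names. H2-Aa and H2-Eb1 encode chains of the MHC class II molecules. Irf8, Irf9 and Ifngr1 encode regulators of interferon signalling, and Ifi27, Ifitm3, Oasl2 and Adar are induced by interferon. The study compared 4 Cx43 KO with 4 WT arrays, each from astrocytes of neonatal mice. The labels describe the Cx43 KO animals only as null for the gene, and the label of WT 1 names the strain C57BL/6j. Each array set astrocyte RNA against a shared reference pooled from adult male and female tissues, spleen, lung, liver and brain among them. Arrays numbered 1 to 4 of each genotype shared a lot batch of the same number, and the array used as Cx43 KO 3 has a title that reads only Cx43. The labels leave unsaid if the arrays of a genotype had cultures or animals of their own, and the p-values therefore refer to the variation among these 8 arrays, technical or not.

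Interferons are secreted proteins that warn cells of infection. Type I interferon acts through a receptor, JAK kinases and a complex that contains IRF9 and binds the interferon-stimulated response element of target genes. Interferon gamma acts through the receptor chains IFNGR1 and IFNGR2, and induces MHC class II through the coactivator CIITA. Class II molecules present peptides to helper T cells. They are characteristic of dendritic cells, B cells and macrophages, and astrocytes can be brought to express them by interferon gamma.

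The promoter sequences below show letter matches to elements of class II and interferon-responsive promoters. They are printed because the results turn on whether the class II and the interferon-induced genes moved together. RefSeq windows (GRCm38.p6, from 250 bases before to 50 bases after a transcript start) were matched for 8 of the 9 genes, with 12 windows in all. Capitals mark CTGATTGG, the Y box of class II promoters, in the first pair, TTCNNNGAA and CTGATTGG in Irf8, and GAAANNGAA, a core of the interferon-stimulated response element, in Ifitm3. The stretches are H2-Aa (chr17:34287844-34287923, minus strand), H2-Eb1 (chr17:34305756-34305835, plus strand), Irf8 (chr8:120736178-120736247, plus strand) and Ifitm3 (chr7:141010715-141010744, minus strand, the first 30 transcribed bases).
H2-Aa: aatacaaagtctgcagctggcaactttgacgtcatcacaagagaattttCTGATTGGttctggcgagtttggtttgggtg
H2-Eb1: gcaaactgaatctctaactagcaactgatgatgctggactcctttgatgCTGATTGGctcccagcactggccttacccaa
Irf8: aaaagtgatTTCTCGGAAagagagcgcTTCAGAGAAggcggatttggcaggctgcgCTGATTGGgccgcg
Ifitm3: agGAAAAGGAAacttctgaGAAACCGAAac

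The CTGATTGG letters began 51 bases upstream of the start in H2-Aa, 62 bases upstream in H2-Eb1 and 124 bases upstream in Irf8. Searched on both strands, CTGATTGG was in 4.10% of all 32851 windows. GAAANNGAA was in 8.56% of windows and, among these genes, at 2 places in Ifitm3 and in a window of Adar. TTCNNNGAA, a loose form of the STAT-binding element, was in 8.30% of windows and in Irf8, in Ifitm3 and in that same window of Adar. The TTCNNNGAA match of Ifitm3 overlaps its second GAAANNGAA match. These matches are descriptions of the letters in the windows, not of binding.

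Each value below is a log2 ratio, astrocyte RNA divided by pool RNA, after the median of each array was set to 0. Above or below the pool therefore means above or below the median ratio of the array. Before this step those medians were 0.09 to 0.32, so that 0 is not equality with the pool. The base of the logarithm was taken as 2. Between 3506 and 5514 features carried a ratio on an array, and exact 0 in the other features was read as no ratio. Marker genes set the direction of the ratio: 4 astrocyte markers had a median of 1.11 and 4 genes of lung, kidney and stomach a median of -3.40. Gja1, the connexin43 gene, is named by 0 features and was not analysed here, which leaves the genotype labels unchecked on the targeted transcript. Of the 13 features of the 9 genes, 10 carried a ratio on all 8 arrays, 1 on Cx43 KO 4 alone and 2 on 0 arrays, so that all 9 genes had 8 values. Where a gene had several features, those with a ratio on an array were averaged there.

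The array Cx43 KO 4 stood apart from the other 7. The mean of 4 astrocyte markers was 0.49 on it. It was 1.66 to 1.81 on the other Cx43 KO arrays and 1.62 to 1.93 in WT. The mean of 8 microglia and macrophage markers was -0.28, 0.23, 1.30 and 2.64 on Cx43 KO 1 to 4, against 0.81, 1.48, 1.48 and 0.77 on WT 1 to 4, so that the Cx43 KO arrays lay both below and above the WT range. Summed over these 8 markers the log2 ratios ran from -2.24 to 21.2 in Cx43 KO and from 6.19 to 11.8 in WT. Of these 8, 6 were highest on Cx43 KO 4, as were 20.2% of all genes and features with 8 values. Tyrobp at 1.06 and Tmem119 at 0.86 lay within their WT ranges on that array, 0.22 to 1.29 and 0.69 to 1.18. Fcgr3 and Ly86, not measured on every array, are outside the mean. Fcgr3 read 1.67 on Cx43 KO 4, within its WT range, and Ly86 0.96, below its own. The microglia and macrophage list has 36 genes, of which 18 were on the array, and Coro1a, Ctss, Fcer1g, Itgb2, Mpeg1 and Ptprc had no ratio on any array. The mean of 4 fibroblast, meningeal and mural markers was 2.89 on Cx43 KO 4, -0.71 to 1.10 on the other Cx43 KO arrays and 0.79 to 1.86 in WT. Pdgfra of the same list, measured on 3 arrays of each genotype, is outside that mean. It read 0.24 on Cx43 KO 4, within its WT range of 0.05 to 1.96. Its difference between genotypes was -2.27 (limma adjusted p = 0.578). In such bulk samples, fewer cells of a type and less RNA per cell cannot be told apart. Results are therefore given with and without Cx43 KO 4.

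Of the class II genes, neither lay far from the pool and neither was highest on Cx43 KO 4. H2-Aa, the alpha chain of I-A, had log2 ratios of -0.13, -0.50, 0.01 and -0.02 on Cx43 KO 1 to 4, against 0.90, -0.09, -0.11 and 0.50 on WT 1 to 4. These rest on feature 9128, as feature 2424 of the gene carried no ratio on any array. WT 1 and WT 4 were the high arrays, and the Cx43 KO range overlapped the other pair of WT arrays. The means were -0.16 ± 0.23 in Cx43 KO and 0.30 ± 0.49 in WT (SD, n = 4 each), a difference of -0.46 (95% interval -1.01 to 0.10, limma adjusted p = 0.718). Cx43 KO was lower in 3 of the 4 lot batches, and the difference was -0.50 without Cx43 KO 4 (limma adjusted p = 0.475). It was -0.26 without WT 1, the highest array (limma adjusted p = 0.826), and -0.27 without lot batch 1.

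H2-Eb1, the beta chain of I-E, had 0.14, 0.14, -0.04 and -0.94 on Cx43 KO 1 to 4, against 0.29, -0.81, -0.09 and 0.11 on WT 1 to 4. The groups overlapped throughout, with 1 low array in each genotype. The means were -0.17 ± 0.52 in Cx43 KO and -0.13 ± 0.48 in WT (SD, n = 4 each), a difference of -0.05 (95% interval -0.72 to 0.63, limma adjusted p = 0.986). The low value of Cx43 KO 4 rested on feature 1071, which read -1.85 there and carried no ratio on the other 7 arrays. Feature 8716 carried no ratio on any array. Feature 6824 of the same gene, measured on all arrays, read -0.02 on Cx43 KO 4, within the -0.81 to 0.29 of the other 7. On feature 6824 alone, Cx43 KO averaged 0.05 ± 0.10 and WT -0.13 ± 0.48 (SD, n = 4 each), a difference of 0.18 in the opposite direction (limma adjusted p = 0.872). The gene's difference was also above 0, at 0.21, without Cx43 KO 4.

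**Figure D1:**
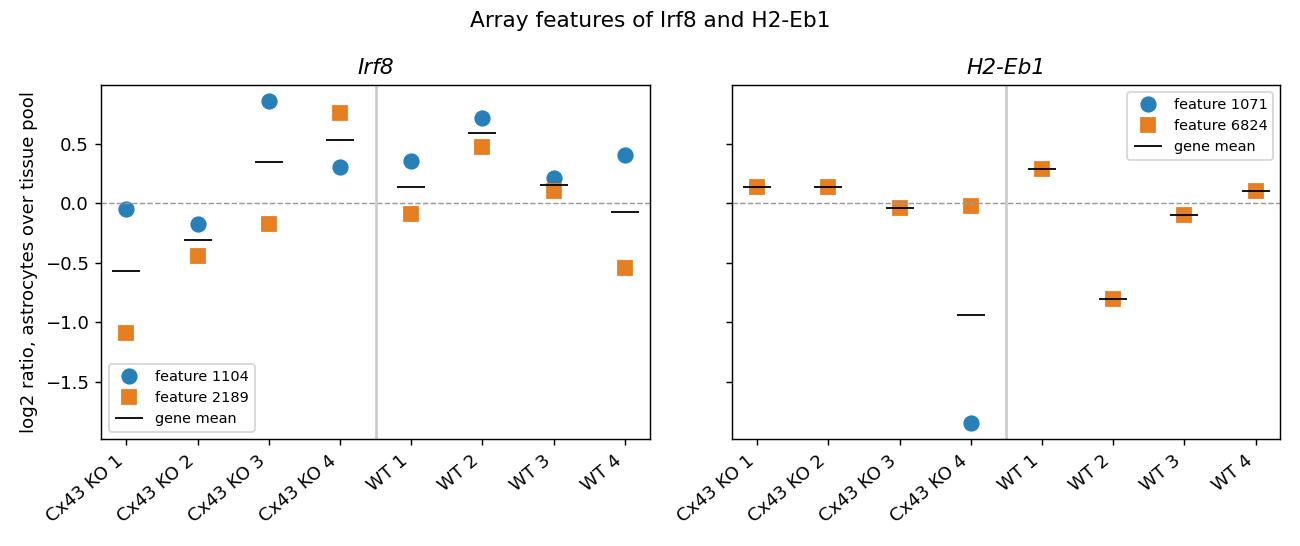
Log2 ratio over the tissue pool (vertical axis) of each measured feature of Irf8 (left) and H2-Eb1 (right) on the 4 Cx43 KO arrays and the 4 WT arrays, with black bars for the mean used for the gene. Feature 1071 of H2-Eb1 has a single point, at -1.85 on Cx43 KO 4, and the Irf8 features lie up to 1.04 apart on an array.

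The regulators had no common pattern. Irf8 encodes an interferon regulatory factor of the myeloid and B cell lineages, which microglia require. Its ratios were -0.57, -0.31, 0.35 and 0.53 on Cx43 KO 1 to 4, against 0.14, 0.60, 0.16 and -0.07 on WT 1 to 4. Cx43 KO 1 and 2 were the lowest arrays, as they were for the microglia and macrophage markers, while Cx43 KO 4 lay below WT 2. The means were 0.0012 ± 0.52 in Cx43 KO and 0.21 ± 0.28 in WT (SD, n = 4 each), a difference of -0.20 (95% interval -0.80 to 0.39, limma adjusted p = 0.875). It was -0.38 without Cx43 KO 4 (limma adjusted p = 0.564), but -0.074 without WT 2 and -0.014 without Cx43 KO 1 (limma adjusted p = 0.995), so that leaving out the lowest array took away nearly all of it. The part of microglia content in these values was not tested.

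Irf8 is measured by a pair of features that parted on some arrays. Feature 1104 read -0.05, -0.17, 0.86 and 0.31 on Cx43 KO 1 to 4, against 0.36, 0.72, 0.21 and 0.41 on WT 1 to 4. Feature 2189 read -1.09, -0.44, -0.17 and 0.76 on Cx43 KO 1 to 4, against -0.09, 0.48, 0.10 and -0.54 on WT 1 to 4. Feature 2189 was thus highest on Cx43 KO 4 and feature 1104 on Cx43 KO 3. The gap between them was 1.04 on Cx43 KO 1 and 0.11 on WT 3, the widest and the narrowest. Their differences between genotypes were -0.19 for feature 1104 and -0.22 for feature 2189.

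Irf9, the DNA-binding subunit of the complex that type I interferon activates, had 0.56, 0.97, 0.90 and 1.43 on Cx43 KO 1 to 4, against 0.34, 0.65, 0.41 and 0.53 on WT 1 to 4. Cx43 KO 2, 3 and 4 lay above every WT array, and Cx43 KO 1 lay below WT 2. The means were 0.97 ± 0.36 in Cx43 KO and 0.48 ± 0.13 in WT (SD, n = 4 each). The difference of 0.49 (SE 0.20, 95% interval 0.04 to 0.94) had an unadjusted limma p of 0.037 and did not pass after adjustment over the 3505 genes and features tested (adjusted p = 0.655). Cx43 KO was higher in 4 of 4 lot batches, by 0.22, 0.33, 0.49 and 0.91. A two-sided exact permutation test over the 70 arrangements gave p = 0.057 for Irf9, the smallest of the 9 genes. The same test gave p from 0.114 (Ifitm3) to 0.943 (Ifngr1) for the others. Leaving out Cx43 KO 4 gave an Irf9 difference of 0.33 (limma adjusted p = 0.489). Irf9 was the only 1 of the 9 genes with an unadjusted p under 0.05, a level reached by 7.5% of all genes and features tested.

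Ifngr1, the ligand-binding chain of the interferon gamma receptor, was the gene furthest below the pool. It had -0.25, -0.97, -1.93 and -1.69 on Cx43 KO 1 to 4, against -1.43, -0.93, -0.98 and -1.35 on WT 1 to 4. Both the highest and the lowest array were Cx43 KO, so that the WT arrays lay inside the Cx43 KO range. The means were -1.21 ± 0.76 in Cx43 KO and -1.17 ± 0.25 in WT (SD, n = 4 each), a difference of -0.04 (95% interval -0.78 to 0.70, limma adjusted p = 0.990). Within lot batches 1 to 4 the difference was 1.17, -0.04, -0.95 and -0.34. The sign of so small a difference turned to 0.11 with quantile normalization, 0.17 with scale normalization and 0.12 without Cx43 KO 4.

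The interferon-induced genes averaged above the pool in both genotypes, and 3 of the 4 were highest on Cx43 KO 4. Ifi27, an interferon-induced membrane protein gene, was the exception. It had 0.86, 1.74, 1.14 and 1.57 on Cx43 KO 1 to 4, against 0.84, 1.41, 0.97 and 0.66 on WT 1 to 4, with the lot batch 2 array the highest in each genotype. The means were 1.33 ± 0.40 in Cx43 KO and 0.97 ± 0.32 in WT (SD, n = 4 each), a difference of 0.36 (95% interval -0.18 to 0.90, limma adjusted p = 0.776). Cx43 KO was higher in 4 of 4 lot batches, by only 0.01 in lot batch 1.

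Ifitm3, which encodes a membrane protein that blocks virus entry and whose first bases are printed above, had 0.77, 0.80, 0.53 and 2.62 on Cx43 KO 1 to 4, against 0.59, 0.71, 0.39 and 0.40 on WT 1 to 4. Cx43 KO 4 stood 1.82 above the highest other array, whereas Cx43 KO 3 lay inside the WT range and Cx43 KO 1 and 2 just above it. The means were 1.18 ± 0.97 in Cx43 KO and 0.53 ± 0.16 in WT (SD, n = 4 each), a difference of 0.66 (limma adjusted p = 0.753). It was 0.18 without Cx43 KO 4 (95% interval -0.21 to 0.56, limma adjusted p = 0.719).

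Oasl2, of the oligoadenylate synthetase family of antiviral proteins, varied most between arrays. It had -0.29, 0.94, 0.10 and 2.84 on Cx43 KO 1 to 4, against 0.41, 0.44, 0.84 and 0.06 on WT 1 to 4. The lowest and the highest array were both Cx43 KO, and Cx43 KO 4 stood 1.91 above the next array. The means were 0.90 ± 1.39 in Cx43 KO and 0.44 ± 0.32 in WT (SD, n = 4 each), a difference of 0.46 (limma adjusted p = 0.868). Without Cx43 KO 4 it turned to -0.19 (95% interval -0.83 to 0.45, limma adjusted p = 0.819).

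Adar encodes an enzyme that edits adenosine in double-stranded RNA, with an isoform made from an interferon-induced promoter. It had 0.50, 0.35, 0.77 and 1.60 on Cx43 KO 1 to 4, against -0.50, 0.66, 0.13 and 0.57 on WT 1 to 4. WT 1 was the only array below the pool, and Cx43 KO 3 and 4 lay above every WT array. The means were 0.80 ± 0.56 in Cx43 KO and 0.21 ± 0.53 in WT (SD, n = 4 each), a difference of 0.59 (95% interval -0.13 to 1.31, limma adjusted p = 0.721). It was 0.32 without Cx43 KO 4.

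**Figure D2:**
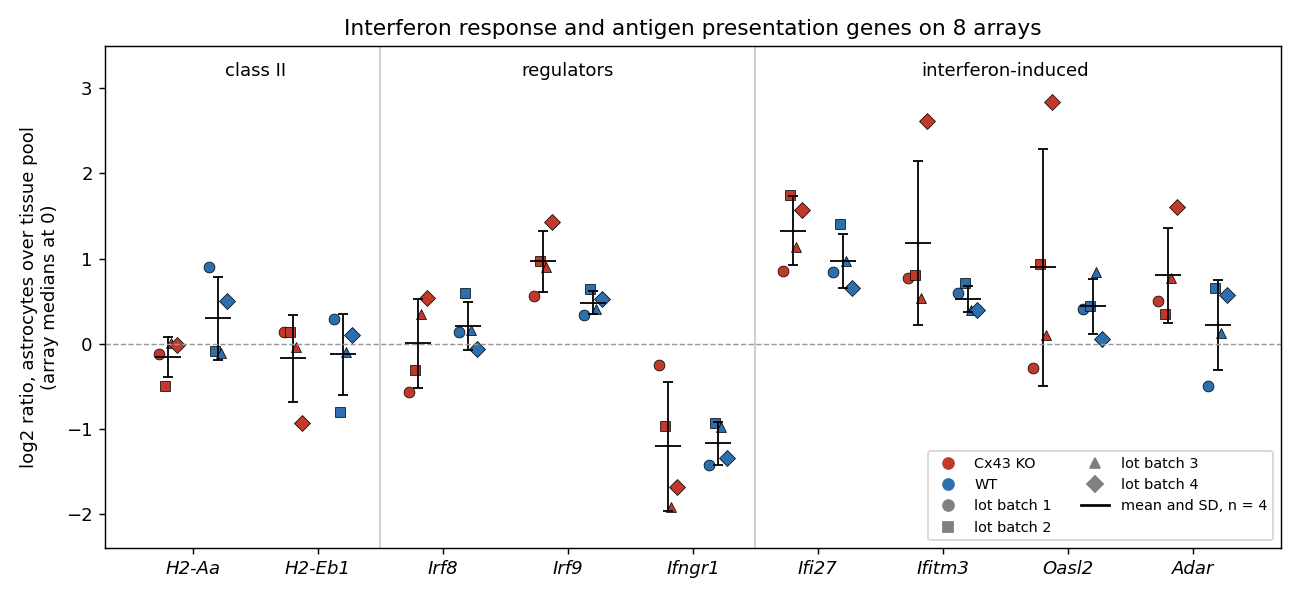
Log2 ratio over the tissue pool (vertical axis) of the 9 genes, with Cx43 KO arrays in red left of WT arrays in blue, the marker shape giving the lot batch, and bars giving the mean and SD of 4 arrays. The lot batch 4 Cx43 KO array is at 2.62 in Ifitm3 and 2.84 in Oasl2, and at -0.02 in H2-Aa.

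Over the 9 genes, 0 passed the limma test at an adjusted p of 0.05, as did 0% of the 3505 genes and features tested, of which 263 had an unadjusted p under 0.05. With array weights in limma 2 of them passed, and 4 without Cx43 KO 4, none of them among the 9 genes. Of the 9 genes 5 were higher in Cx43 KO, where 52.6% of all tested were, with a median difference of 0.36 against 0.02 over all tested. The median of the 9 was 0.18 without Cx43 KO 4, and 6 were higher, against 0.03 and 53.8% over all tested. Because the 9 genes were chosen with earlier results known, the medians and shares in this paragraph are descriptions only. The 9 genes include 0 whose Cx43 KO and WT values did not overlap, where 4.2% of those with 8 values did not. Of the 9 genes 3 were higher in Cx43 KO in all lot batches, where 7.2% of those with 8 values were. With lot batch taken as a replicate block, the adjusted p lay between 0.858 and 0.993 for the 9 genes. On Cx43 KO 4, 4 of the 9 genes had their highest value (Irf9, Ifitm3, Oasl2 and Adar), as did 20.2% of all genes and features with 8 values, and 1 of the 9, H2-Eb1, had its lowest there, as did 22.8%. It stood at least 1 log2 unit above every other array in 2 of the 9 genes, Ifitm3 and Oasl2, where 1.89% of all did.

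**Figure D3:**
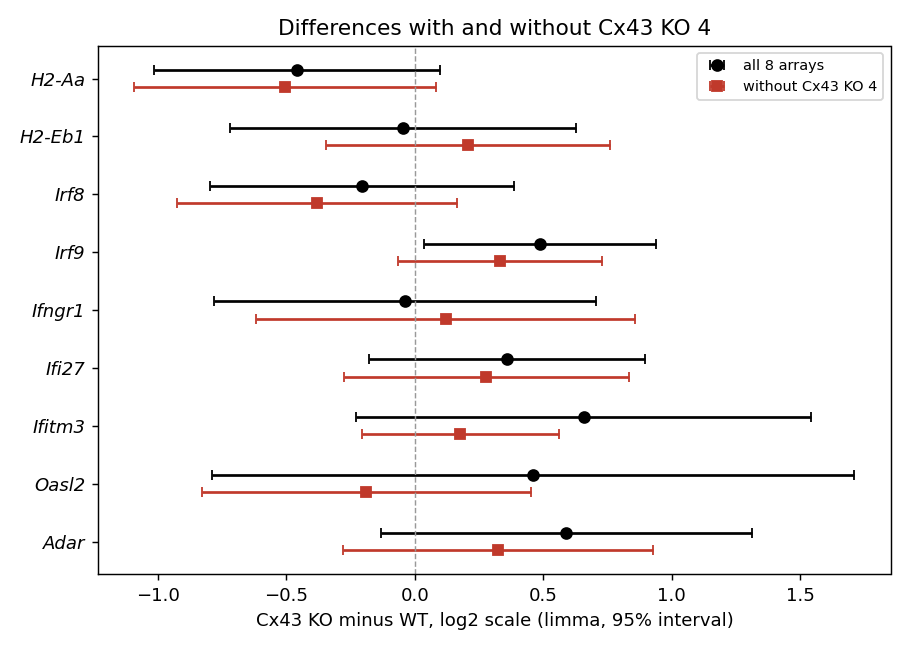
Log2 difference between Cx43 KO and WT (horizontal axis, positive where Cx43 KO is higher) for each gene, with its 95% interval from limma, over all 8 arrays (black circles) and without Cx43 KO 4 (red squares). Leaving out this array moves Ifitm3 to 0.18 and Oasl2 to -0.19, and H2-Aa only to -0.50.

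The order of the ratios to the pool, which are not levels of RNA, ran from Ifi27 at 1.15 ± 0.39 (SD, n = 8) through Ifitm3 at 0.85, Irf9 at 0.72, Oasl2 at 0.67 and Adar at 0.51 to Irf8 at 0.10, H2-Aa at 0.07, H2-Eb1 at -0.15 and Ifngr1 at -1.19. Of 2163 named genes with 8 values, 92.3% lay below Ifi27 and 6.84% below Ifngr1, while H2-Aa and Irf8 lay near the middle, above 51.6% and 53.2%. Neighbours in this order differed by less than the SD of their difference over the 8 arrays, with the exception of H2-Eb1 and Ifngr1. H2-Eb1 was above Ifngr1 on 8 of 8 arrays, by 1.04 ± 0.62 (SD, n = 8). Over the 7 arrays without Cx43 KO 4, a view added after seeing the data, Ifi27 at 1.09 was followed by Irf9 at 0.62, Ifitm3 at 0.60, Oasl2 at 0.36, Adar at 0.35, H2-Aa at 0.08, Irf8 at 0.04, H2-Eb1 at -0.04 and Ifngr1 at -1.12. Ifitm3 and Irf9 thus changed places, as did Irf8 and H2-Aa, and the ratio of Oasl2 on the log2 scale was 0.36 in place of 0.67. On these 7 arrays Ifi27 exceeded Irf9 by 0.46 ± 0.25 (SD, n = 7), more than the SD of their difference. Ifi27, Irf9 and Ifitm3 were above the pool on 8 of 8 arrays, and Ifngr1 on 0. The ratio of a class II gene depends also on the pool, which held spleen and lung RNA.

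The 3 classes were set side by side as means over their genes on each array. The 4 interferon-induced genes averaged 0.46, 0.96, 0.64 and 2.16 on Cx43 KO 1 to 4, against 0.34, 0.81, 0.58 and 0.42 on WT 1 to 4. The 2 class II genes averaged 0.01, -0.18, -0.01 and -0.48 on Cx43 KO 1 to 4, against 0.59, -0.45, -0.10 and 0.30 on WT 1 to 4. The array with the highest interferon-induced mean thus had the lowest class II mean, and WT 1, with the lowest interferon-induced mean, had the highest class II mean. With H2-Eb1 taken from feature 6824, a choice made after seeing the data, the class II mean of Cx43 KO 4 was -0.02, and WT 2 was the lowest array. The 3 regulators averaged -0.09, -0.10, -0.23 and 0.09 on Cx43 KO 1 to 4, against -0.32, 0.10, -0.14 and -0.30 on WT 1 to 4.

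Interferon-induced minus class II was 0.45, 1.14, 0.65 and 2.64 on Cx43 KO 1 to 4, against -0.26, 1.25, 0.68 and 0.12 on WT 1 to 4. It was above 0 on 7 of 8 arrays, WT 1 being the exception. The means were 1.22 ± 0.99 in Cx43 KO and 0.45 ± 0.66 in WT (SD, n = 4 each), and their difference of 0.77 was within the SD of Cx43 KO. It was 0.65 with H2-Eb1 from feature 6824 and 0.30 without Cx43 KO 4. Interferon-induced minus regulators was 0.55, 1.06, 0.86 and 2.07 on Cx43 KO 1 to 4, against 0.65, 0.70, 0.72 and 0.72 on WT 1 to 4. The WT arrays were nearly equal in this quantity and the Cx43 KO arrays lay on both sides of them. Its difference between genotypes was 0.44, and 0.12 without Cx43 KO 4. Regulators minus class II was -0.09, 0.08, -0.21 and 0.57 on Cx43 KO 1 to 4, against -0.91, 0.55, -0.04 and -0.60 on WT 1 to 4. It was above 0 on 3 of 8 arrays. The means were 0.09 ± 0.34 in Cx43 KO and -0.25 ± 0.64 in WT (SD, n = 4 each). Their difference was 0.33, and 0.17 without Cx43 KO 4. Since the genes were chosen with results known, no test of these means was made.

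**Figure D4:**
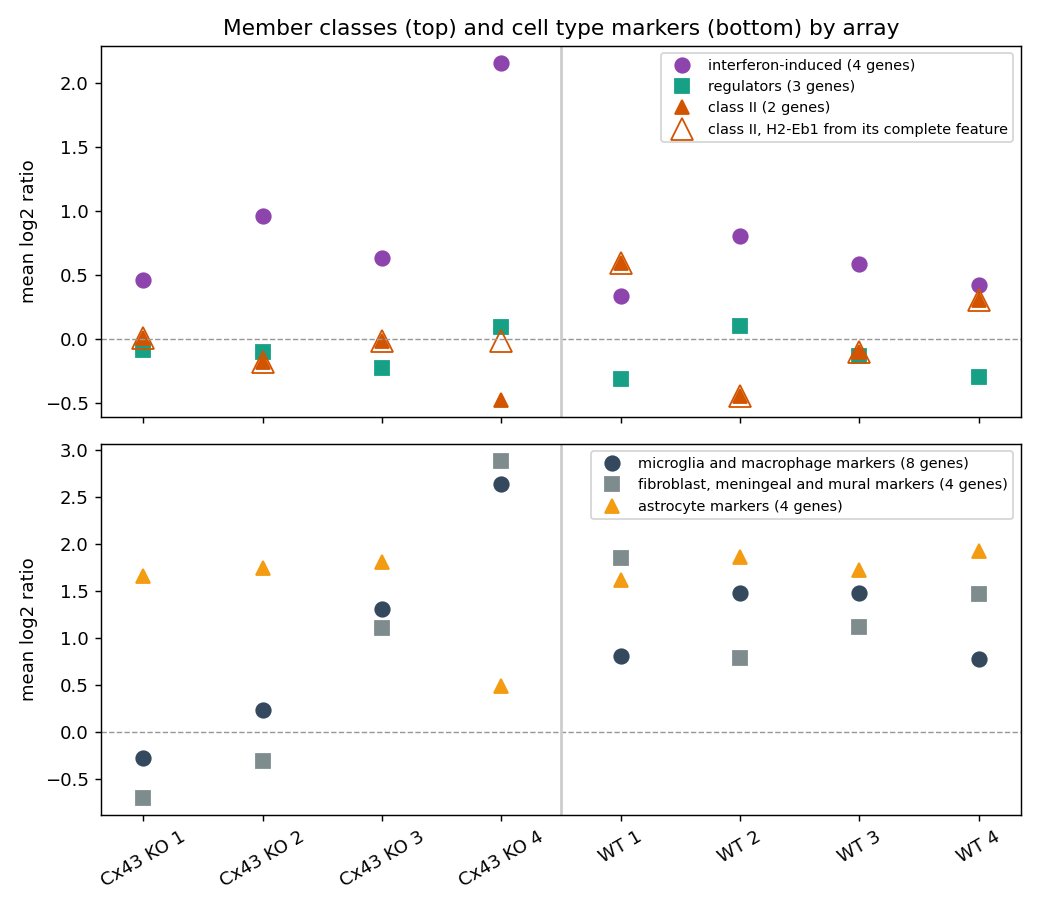
Mean log2 ratio (vertical axes) on the 4 Cx43 KO arrays and the 4 WT arrays of the interferon-induced, regulator and class II genes (top; open triangles take H2-Eb1 from feature 6824) and of 3 cell type marker lists (bottom). On Cx43 KO 4 the interferon-induced mean is 2.16, the microglia and macrophage mean 2.64, the fibroblast mean 2.89 and the astrocyte mean 0.49.

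Wider lists, which include the 9 genes themselves, placed them among others of their pathways. For the list counts below, the shares higher in Cx43 KO over all genes and features tested were 52.6%, and 53.8% without Cx43 KO 4. Of 80 interferon-induced effectors 37 were on the array and 14 were tested, 12 higher and 2 lower in Cx43 KO, with a median difference of 0.36. The 14 include the 4 interferon-induced genes above, all higher and chosen with results known. Without Cx43 KO 4, 7 of the 14 were higher and the median was 0.04. Of the 7 with 8 values, 6 were highest on Cx43 KO 4, Ifitm3, Oasl2 and Adar among them. Of all genes and features with 8 values, 20.2% were. The trait was not particular to this list. It was found in 8 of 15 signalling regulators, 6 of 8 microglia and macrophage markers and 4 of 4 fibroblast markers, but in 0 of 4 astrocyte markers. Besides the 4 described above, the smallest p belonged to Tgtp1, a GTPase gene, at -0.57. Next came Pml, which organises nuclear bodies, at 0.70, and the apoptosis-associated Xaf1 at 0.63. Leaving out Cx43 KO 4 gave -0.35 for Tgtp1, 0.52 for Pml and 0.18 for Xaf1. Xaf1 had -0.18, 0.42, -0.14 and 1.83 on Cx43 KO 1 to 4, against -0.39, -0.01, 0.09 and -0.29 on WT 1 to 4, and so was high on the same array as Ifitm3 and Oasl2. Tgtp1, measured on 3 arrays of each genotype, was lowest on Cx43 KO 4 at -2.94. None of the 14 passed the test.

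For class I presentation 4 of 28 listed genes were on the array and 2 were tested, both higher without passing. Tap1, a subunit of the peptide transporter that feeds class I molecules, had 0.02, 0.23, 0.07 and 2.04 on Cx43 KO 1 to 4, against 0.53, 0.02, 0.06 and -0.53 on WT 1 to 4, a difference of 0.57 (SE 0.43, limma adjusted p = 0.778). Psme1, a proteasome activator subunit, differed by 0.39. Without Cx43 KO 4 the difference was 0.09 for Tap1 and 0.22 for Psme1, and the median of the pair was 0.15 in place of 0.48. Both were highest on Cx43 KO 4, as the class II genes were not. Of 22 class II and loading genes 14 were on the array and 4 were tested, 1 higher and 3 lower in Cx43 KO with a median difference of -0.13 and 0 passing. Without Cx43 KO 4, 3 of the 4 were higher and the median was 0.11. Besides H2-Aa and H2-Eb1 they were the lysosomal protease Lgmn at 0.46 (0.63 without Cx43 KO 4) and Rfxap, a subunit of the RFX complex that binds class II promoters, at -0.21 (0.0088 without Cx43 KO 4), and neither was highest on Cx43 KO 4. Ciita, H2-Ab1, H2-Oa, H2-Ob, Ctss, Rfx5 and Rfxank were listed at 0 on all arrays.

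Of 67 interferons, receptors and signalling regulators 30 were on the array and 17 were tested, 11 higher and 6 lower in Cx43 KO, with a median difference of 0.10 and 0 passing. Without Cx43 KO 4, 9 of the 17 were higher. After Irf9 the smallest p belonged to Pias4, an inhibitor of activated STAT, at -0.55, to Stat3 at 0.30 and to Socs2, a suppressor of cytokine signalling, at -0.47. With Cx43 KO 4 left out, Pias4 differed by -0.83, Stat3 by 0.24 and Socs2 by -0.60. Stat3 had 1.36, 1.44, 1.95 and 1.81 on Cx43 KO 1 to 4, against 1.24, 1.60, 1.17 and 1.36 on WT 1 to 4, with Cx43 KO 3 and 4 above every WT array. Stat2, Jak2 and Mavs were listed at 0 on all arrays.

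The genes most like each member over the 8 arrays, by Pearson's r, were sought among 2162 other named genes with 8 values. These are the highest of many correlations on few arrays and are given as descriptions. Oasl2 was most like Rsad2 (r = 0.97, and 0.86 over the 7 arrays without Cx43 KO 4), which encodes the interferon-induced antiviral enzyme viperin. Rsad2 had -1.85, -0.86, -1.40 and 1.13 on Cx43 KO 1 to 4, against -0.68, -0.99, -0.89 and -1.48 on WT 1 to 4, below the pool on every array but Cx43 KO 4. The next gene was B3galnt1, at r = 0.96. Ifitm3 was most like the exporter Abcc1 (r = 0.997, and 0.93 without Cx43 KO 4) and the ubiquitin ligase subunit Btrc (r = 0.97, but 0.36 without Cx43 KO 4). Adar was most like Mroh1 (r = 0.97) and Nufip1 (r = 0.92), and Ifi27 most like Cep68 (r = 0.87) and the deubiquitinase Usp14 (r = 0.86).

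Among the regulators, Irf8 was most like the amino acid transporter Slc7a8 (r = 0.94) and Cd68, a lysosomal protein of macrophages and microglia (r = 0.91, with or without Cx43 KO 4). Cd68 had 0.81, 1.43, 2.16 and 3.78 on Cx43 KO 1 to 4, against 2.44, 2.99, 2.84 and 2.03 on WT 1 to 4. Like Irf8 it was lowest on Cx43 KO 1 and 2, but unlike Irf8 it was highest on Cx43 KO 4. Irf9 was most like the haem oxygenase Hmox1 (r = 0.93, and 0.79 without Cx43 KO 4) and Usp14 (r = 0.92), and Ifngr1 most like Hscb (r = 0.96) and Tbrg4 (r = 0.92). H2-Aa was most like the splicing protein gene Snrpb (r = 0.94) and Mvd of the mevalonate pathway (r = 0.93). H2-Eb1 was most like the splicing factor Prpf19 (r = 0.91) and the cyclophilin Ppig (r = 0.90), with its value on Cx43 KO 4 including feature 1071. No gene of the microglia, class II or interferon lists was among the 2 most like H2-Aa or H2-Eb1. Such an absence was likely in advance, because few of the 2162 genes ranked belong to these lists. Those with 8 values were 8 microglia and macrophage genes, 4 class II and loading genes, 7 interferon-induced effectors and 15 signalling regulators. The 4 include H2-Aa and H2-Eb1 themselves. No conclusion on likeness to these lists is drawn from it.

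Markers of other cells that carry class II molecules were scarce. Of 20 dendritic cell and B cell markers 6 were on the array, Cd79a and Cd79b had no ratio on any array, and only the B cell gene Ms4a1 was tested. It lay at -1.87 ± 0.74 in Cx43 KO and -1.81 ± 0.59 in WT (SD, n = 4 each), below the pool on all arrays. Of the endothelial list only Cdh5 was tested, at -1.02 ± 0.59 (SD, n = 3) in Cx43 KO and -0.40 ± 1.17 (SD, n = 4) in WT. Of the neuron and oligodendrocyte list, Cnp was at -0.38 ± 0.77 in Cx43 KO and -0.11 ± 0.25 in WT (SD, n = 4 each), lowest at -1.53 on Cx43 KO 4, and Rbfox3 averaged below the pool in both genotypes. The part of other cell types in the values of Cx43 KO 4 was not tested.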

How the data were processed

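RNA of 4 Cx43 KO and 4 WT astrocyte samples was measured on 2-colour arrays with a common tissue pool in the other channel, per the labels. The deposited values were signed log ratios, read as log2; the base, dyes, scanner, background correction and within-array normalization were not stated, and another base would rescale every difference. Exact 0, 42.4% to 63.4% of features on an array, was read as missing. Before centring, the medians of the other ratios were 0.09 to 0.32. The number of arrays limits the precision.

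Names came from the platform annotation: 7307 features had 1 symbol, 318 several and 1943 none, and 7256 matched the GRCm38.p6 gene table. Each array was centred on its median, features of a gene were averaged, and genes or features with at least 3 values per genotype were tested with limma 3.58.1 (R 4.3.3, statmod 1.5.0), two-sided, with Benjamini-Hochberg adjustment, threshold 0.05, all 8 arrays and no block. For single genes a two-sided exact permutation test over arrays was added. The fit was tested on simulated data. Lot batch pairs same-numbered arrays per the labels; across genes, the deviations of paired arrays from their genotype's mean had r = -0.18, 0.19, -0.13 and -0.18.

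The members and lists were chosen with earlier results of these data known. Named genes were the members and the 2 genes most correlated with each. From each wider list they were those passing, or else the 3 with the smallest p outside the members. Cell type markers and genes listed at 0 were named after their values were seen. These markers are Tyrobp, Tmem119, Fcgr3, Ly86, Pdgfra, Ms4a1, Cdh5, Cnp and Rbfox3, and Cd68 was named by likeness. Alternatives were other normalizations, missing-value rules, weights, the block, single features and leaving out arrays or lot batches.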

Additional observations from a re-analysis of the deposited data

Results flagged for a closer look

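Among 42 groups of 4 values (the 9 genes, 3 class means, 7 list means and the single marker genes Ms4a1 and Cnp in each genotype), 4 held an array whose gap to the nearest other, as a share of the whole range, exceeded the Dixon value of 0.829. Chance alone flags about 1 in 20 groups. All 4 concern Cx43 KO 4. Ifitm3 in Cx43 KO had a share of 0.870, with 2.62 on that array and 0.80 on the nearest other. H2-Eb1 in Cx43 KO had a share of 0.834, with -0.94 there and -0.04 on the nearest other, and the low value came from a feature measured on that array alone. The astrocyte marker mean in Cx43 KO had a share of 0.883, with 0.49 there and 1.66 on the nearest other. Cnp, a gene of oligodendrocyte myelin, had a share of 0.888 in Cx43 KO, with -1.53 there and -0.06 on the nearest other. It was the one gene of the neuron and oligodendrocyte list with a value on all arrays, and Ms4a1 was the one of the dendritic cell and B cell list, so each is given as a single gene and not as a list mean. That choice followed a look at the values.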

How the results depend on the processing

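No member passed under any alternative that was run. Over all genes and features, 0 passed in the reported fit, 2 with array weights, and 0 to 4 when 1 array was left out (4 without Cx43 KO 4, 1 without WT 2). The fit with lot batch as replicate block called 0. The number at an unadjusted p under 0.05 was 263, against 196 with the block, 511 with array weights, 140 to 384 without 1 array, and 142, 161, 102 and 427 without lot batches 1 to 4. H2-Aa, Irf9, Ifi27, Ifitm3 and Adar kept their sign in all 21 alternatives. Several of these could not change it, since each of these genes had 8 values from a single measured feature. The lot batch block, genes with 8 values only, at least 2 values per genotype and single features returned the same difference. When 1 array was left out H2-Aa ranged from -0.59 to -0.26, Irf9 from 0.33 to 0.62, Ifi27 from 0.22 to 0.52, Ifitm3 from 0.18 to 0.87 and Adar from 0.32 to 0.74. H2-Eb1 turned to 0.25 with array weights, 0.18 on feature 6824 alone and 0.29 without lot batch 4, and ranged from -0.27 to 0.21 when 1 array was left out. Ifngr1 turned to 0.11 with quantile and 0.17 with scale normalization, 0.15 with array weights, 0.26 without lot batch 3 and 0.061 without lot batch 4, and ranged from -0.36 to 0.20 when 1 array was left out. Oasl2 turned to -0.19 with array weights and -0.31 without lot batch 4, ranging from -0.19 (without Cx43 KO 4) to 0.86 when 1 array was left out. Irf8 turned to 0.029 without lot batch 2 and ranged from -0.38 to -0.014 when 1 array was left out. The cause of these turns was not tested. Ratios to the pool and class differences moved by less than 1 SD under every alternative run, although without centring H2-Eb1 averaged 0.07 in place of -0.15 and feature 2189 put Irf8 at -0.12. That SD includes Cx43 KO 4, so it is a loose measure for leaving this array out. The ratio of Oasl2 went from 0.67 to 0.36 without it, against an SD of 0.97. The SD was loose for the class differences too. For interferon-induced minus class II it was 0.84, against a difference between genotypes of 0.77. For regulators minus class II it was 0.52, against 0.33. A fall of either difference to 0 would thus also have been a move of less than 1 SD. Class differences cannot change without centring, as the same shift applies to each class. Interferon-induced minus class II differed between genotypes by 0.30 to 1.04, and regulators minus class II by 0.11 to 0.60, when 1 array was left out. Signal over background is not known for these ratios.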
